A study of Mus musculus with 4 samples.

Results

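The 9 genes described here encode the subunits of 2 classes of glutamate-gated ion channel. Gria1, Gria2, Gria3 and Gria4 encode the 4 AMPA receptor subunits, and Grik1, Grik2, Grik3, Grik4 and Grik5 encode the 5 kainate receptor subunits. They were taken by gene symbol, and all 9 were found among the 32285 genes of the deposited matrices. Nuclear RNA of single nuclei was sequenced from whole brain without cerebellum of wild-type C57BL/6 mice aged 10 weeks, with a droplet kit that counts unique molecular identifiers (UMIs) from the 3' end of each transcript. In vivo tissue was taken by craniotomy under isoflurane anaesthesia, and post-mortem tissue after cervical dislocation, per the labels; a word in the names of the deposited post-mortem data may refer to decapitation instead, which was not settled. Freezing on dry ice took 10 min for every brain. Nuclei were either fixed in 80% methanol at -20 °C for 30 min and then handled with a preservation kit, or left unfixed. The 4 libraries were thus in vivo fixed, post-mortem fixed, in vivo unfixed and post-mortem unfixed, and values below follow that order wherever 4 are given. Each group held 1 library. No test between groups was made, a ratio compares 2 libraries and has no replicate check, and harvest cannot be told apart from the animal or the piece of tissue extracted. The labels do not say whether 1 brain supplied both the fixed and the unfixed library of a harvest.

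Filters kept 6822, 9800, 15119 and 12404 nuclei in the 4 libraries, with 51088678 to 64653047 UMIs each. The fixed libraries were deeper per nucleus, with medians of 7830 and 6287 UMIs, against 3021 and 3780.5 UMIs in the unfixed libraries. Pairs of libraries shared 61 to 210 barcodes. Nuclei were sorted into types by counting marker genes, none of which was a receptor subunit. A type name below therefore means nuclei with that type's markers (astrocyte-like nuclei, and so on), not an annotation by the authors. No gate was passed by 13.8% and 16.4% of the nuclei in the fixed libraries, against 44.1% and 35.6% in the unfixed libraries. Most check genes outside the gates were highest in the type they mark, among them Mbp and Cnp in oligodendrocytes, C1qa and Dock8 in microglia, Slc1a2 in astrocytes, and Tac1 and Penk in the Drd1 and Drd2 medium spiny neurons (MSNs). Exceptions among the types compared were Nxph1, an interneuron gene that was highest in oligodendrocyte precursor cells (OPCs), Prkcd and Rora, which were not highest in the subcortical glutamatergic gate, and Tnr, which was highest in newly formed oligodendrocytes rather than OPCs.

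AMPA receptors are tetramers that carry most fast excitatory transmission between neurons of the brain, and a receptor that contains the GluA2 subunit, the product of Gria2, passes little calcium because its messenger RNA is edited at the glutamine/arginine site of the pore. Kainate receptors are also tetramers: the products of Grik1, Grik2 and Grik3 can form channels alone, while those of Grik4 and Grik5 bind glutamate tightly and need a subunit of that channel-forming kind as a partner. Kainate receptors act on both sides of synapses and adjust transmitter release and excitability.

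The pore loop is shown because it carries the glutamine/arginine site that gives the subunits much of their functional difference. The 36 genomic bases below are the coding strand of the mm10 genome as annotated by GENCODE M21, and the capitals mark the codon of the site, which is a glutamine codon in the genome of all 9 genes.
Gria1: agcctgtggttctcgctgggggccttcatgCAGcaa
Gria2: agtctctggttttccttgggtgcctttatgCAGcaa
Gria3: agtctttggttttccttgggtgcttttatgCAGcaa
Gria4: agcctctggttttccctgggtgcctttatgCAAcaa
Grik1: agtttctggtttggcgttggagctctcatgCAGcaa
Grik2: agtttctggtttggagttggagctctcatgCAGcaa
Grik3: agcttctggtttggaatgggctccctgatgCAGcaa
Grik4: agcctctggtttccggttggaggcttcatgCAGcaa
Grik5: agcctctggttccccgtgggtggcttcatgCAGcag
The loops of Grik1 and Grik2 were identical at 35 of the 36 bases and those of Gria2 and Gria3 at 34, while the least alike pair shared 24. The Gria2 loop lies at chr3:80706908-80706943 on the minus strand, in exon 11 of the transcript used, and the Grik2 loop at chr10:49244326-49244361 on the minus strand, in exon 12. Editing changes the messenger RNA at this codon in Gria2, Grik1 and Grik2 and leaves the genome as printed. The deposited counts give UMIs per gene and do not read the edited base, so editing was not measured.

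The genes differ widely in length, and longer genes give more UMIs in nuclear RNA. On mm10, Gria1 spans chr11:57011387-57330244 (plus strand), Gria2 chr3:80681450-80802835 (minus), Gria3 chrX:41400854-41678601 (plus) and Gria4 chr9:4417896-4796234 (minus). Grik1 spans chr16:87895900-88290265 (minus), Grik2 chr10:49094833-49788766 (minus), Grik3 chr4:125490700-125714173 (plus), Grik4 chr9:42518135-42944493 (minus) and Grik5 chr7:25009849-25072346 (minus). No annotated gene on the opposite strand overlaps any of the 9, so the unknown strand setting of the counting does not mix them with an antisense partner in this annotation. Grik5, at 62.5 kb, is the shortest gene and Grik2, at 694 kb, the longest.

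Levels are given as CPM, the UMIs of a gene divided by all UMIs of the same nuclei and scaled by the usual constant, with UMIs summed over the nuclei of a library or of a type in a library. Intervals are exact at 95% and cover counting error only, and because amplified molecules and nuclei of 1 library are not independent samples, they say nothing about animals. In sums over all nuclei, fewer nuclei of a type and less RNA per nucleus cannot be told apart. The AMPA genes together held 4711, 4225, 4560 and 4008 CPM, and the kainate genes 2150.3, 2100.0, 1951 and 1838 CPM. Per 100 kb of gene, Gria2 had the highest level of the 9, with 1299, 1366, 1042 and 1189.5 CPM per 100 kb in the 4 libraries. The other AMPA genes followed at medians of 359.7 (Gria1), 259 (Gria3) and 255 (Gria4) CPM per 100 kb. Among kainate genes, Grik2 and Grik5 had near-equal medians on this scale, 199.99 and 197 CPM per 100 kb, but differed within libraries. Grik2 had 223, 223, 175 and 177 and Grik5 151, 131, 263 and 242, so Grik2 was higher in the fixed libraries and Grik5 in the unfixed ones. Grik3, Grik1 and Grik4 were lower, at medians of 65.4, 53.4 and 29.7. Without the division by length, Grik2 had 1547, 1549.9, 1214 and 1228 CPM against 94.4, 82.1, 165 and 152 CPM for Grik5. The size of that difference thus depends on gene length, and in the unfixed libraries its direction does too.

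**Figure D1:**
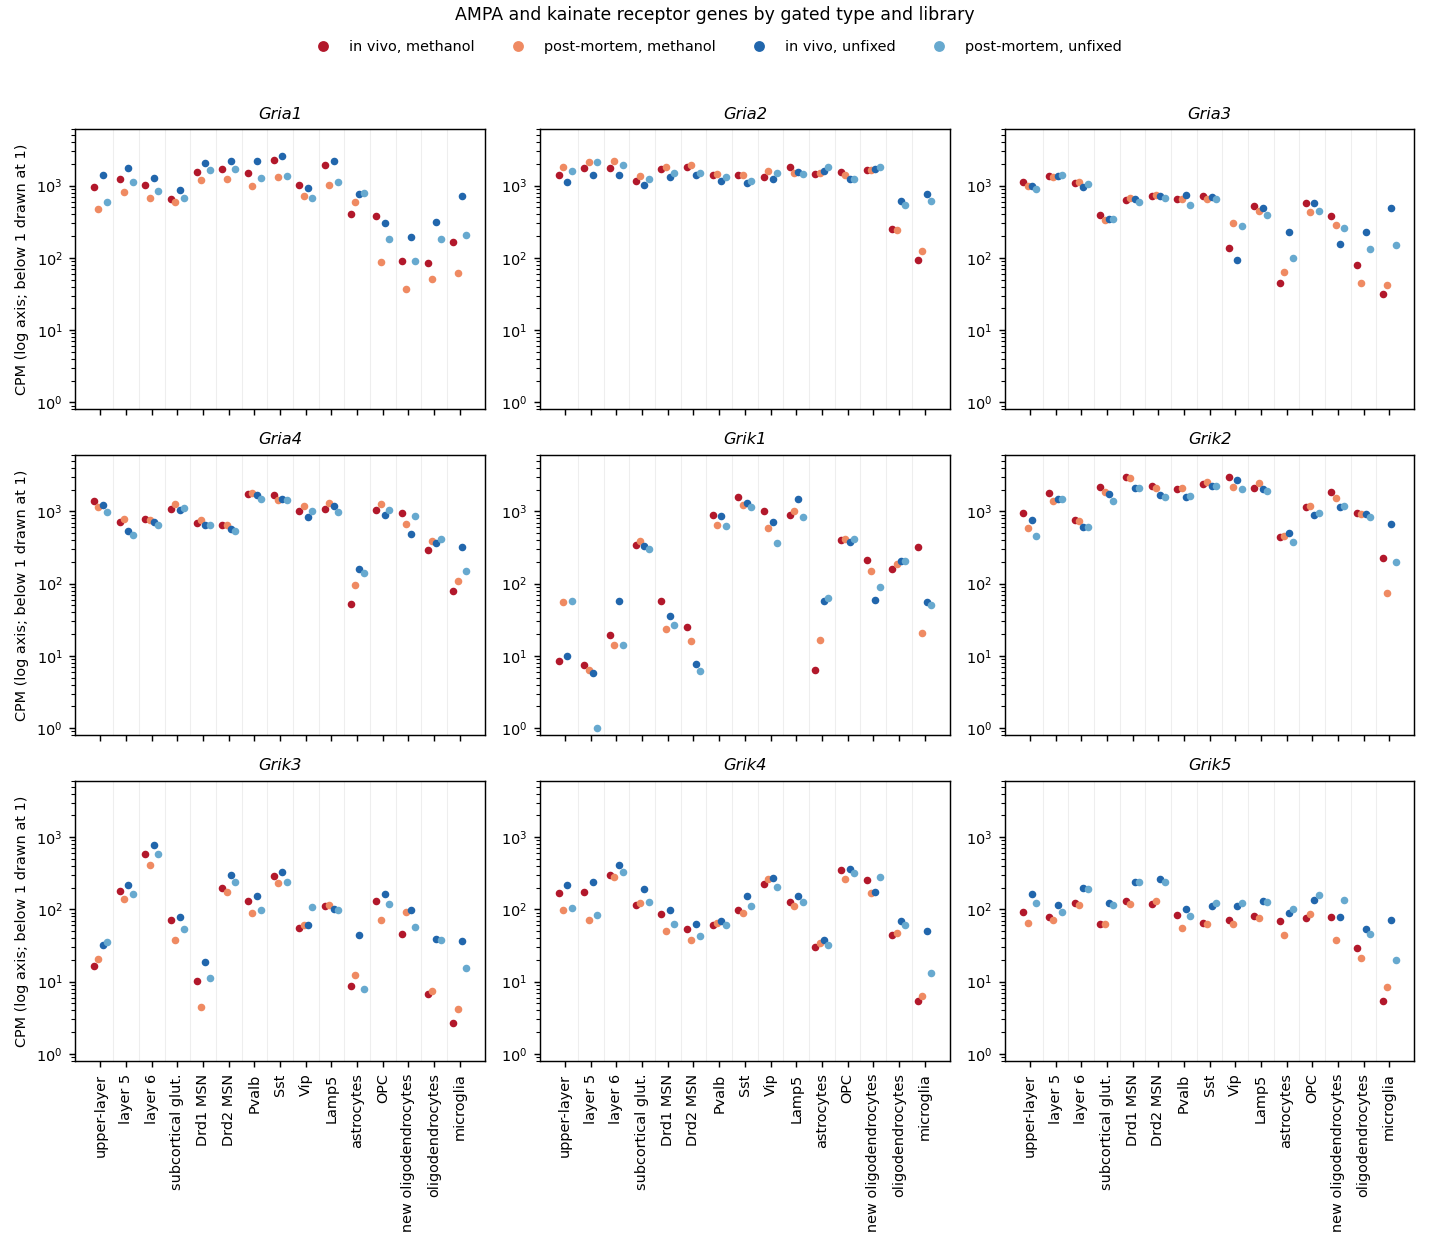
Level of each receptor gene (CPM, log axis) in 15 gated types, with 1 point per library and the 1 value of 0 drawn at 1. Grik1 and Grik3 spread over the widest ranges between types, Gria2 is high in neurons, astrocytes, OPCs and newly formed oligodendrocytes, and the points of unfixed libraries lie above those of fixed libraries in microglia for most genes.

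Gria2 was the AMPA gene spread most evenly over types. Its median over libraries was highest in layer 5 excitatory nuclei, at 1909 CPM, and apart from the cholinergic nuclei no neuron type had a median below the 1211 CPM of subcortical glutamatergic nuclei. Astrocytes, which do not receive classical synapses, had 1461, 1517, 1609.9 and 1824 CPM of Gria2, and newly formed oligodendrocytes 1643, 1655, 1718 and 1808 CPM. Those glial values lie within the range of neurons. Oligodendrocytes had 254, 241, 611 and 546 CPM. Of the 15 neighbouring pairs in its order of 16 types, 13 had library ranges that overlapped. The types share the same 4 libraries and the ranges ignore that pairing. Overlap of ranges, here and for the genes below, therefore does not show that neighbouring types are alike.

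Gria1, the subunit best known from activity-dependent insertion at hippocampal synapses, was highest in Sst interneurons, at 2274, 1326, 2583 and 1347 CPM. MSNs followed, with 1624, 1195, 2130.0 and 1681 CPM. The 2 in vivo libraries were the higher ones in Sst nuclei at each fixation state. In OPCs Gria1 was low and uneven, at 382, 88.4, 306 and 184 CPM, and in newly formed oligodendrocytes its median was 90.8 CPM. In its order of types, 14 of 15 neighbouring pairs overlapped.

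Gria3, which lies on the X chromosome, was highest in layer 5 excitatory nuclei, at 1345, 1336, 1361 and 1414 CPM. That range did not overlap the range of the next type, layer 6, at 965 to 1105 CPM. It was lower in GABAergic nuclei than in cortical excitatory nuclei in 4 of 4 libraries, with 556, 483, 572 and 445 CPM in GABAergic nuclei against 1138, 977, 1001 and 897 CPM in excitatory nuclei, a log2 difference of -1.03 to -0.81. Within the interneurons, Vip nuclei were lowest, at 138, 305, 94.7 and 278 CPM, while Sst nuclei had 643 to 716 CPM. Vip nuclei numbered 175 in the series.

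Gria4, known for fast-gating receptors of interneurons, was highest in Pvalb interneurons, at 1739.7, 1804, 1709 and 1489 CPM. Sst interneurons had 1701, 1439, 1484 and 1459 CPM, a range that overlapped that of Pvalb nuclei. Layer 5 nuclei were at 714, 779.5, 529 and 473 CPM and Drd2 MSNs at 648, 647, 569 and 537 CPM. OPCs reached 1057, 1267, 882 and 1033 CPM, as high as many neurons, and astrocytes had 51.4, 96.2, 159 and 138 CPM.

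Grik1 had the widest ratio of the 9 genes between its highest and lowest type by median. Its product, GluK1, is the kainate subunit long associated with interneurons. GABAergic nuclei had 829.7, 766, 760.4 and 641 CPM, against 35.3, 41.2, 26.3 and 42.9 CPM in cortical excitatory nuclei, a log2 difference of 3.90 to 4.85 in 4 of 4 libraries. Sst nuclei were highest, at 1586, 1209, 1309.8 and 1147 CPM, and only Lamp5 nuclei among the other interneurons overlapped that range, with a median of 949.9 CPM. Pvalb nuclei had a median of 757 CPM and Vip nuclei of 654 CPM. Layer 5 nuclei had 7.59, 6.38, 5.75 and 0 CPM, and in the in vivo fixed library 15 of the 21 UMIs behind that value came from 1 nucleus. The post-mortem unfixed layer 5 count of 0 allows up to 12.7 CPM. Outside GABAergic nuclei, Grik1 stood at 397, 412, 379 and 420.3 CPM in OPCs and at 337, 384, 327 and 305 CPM in subcortical glutamatergic nuclei.

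Grik2, the gene of the most widely expressed kainate subunit, GluK2, was highest in Drd1 MSNs, at 2974, 2877, 2092 and 2083 CPM. The whole MSN gate exceeded cortical excitatory nuclei in 4 of 4 libraries, by 1.18 to 1.80 on the log2 scale. Vip and Sst interneurons had medians of 2428 and 2317 CPM, and their ranges overlapped that of Drd1 MSNs. Oligodendrocytes had 935, 921, 925 and 844 CPM, more than the median of 678 CPM in layer 6 nuclei. The share of oligodendrocytes with a Grik2 UMI was 49.9%, 52.3%, 53.6% and 50.0% after thinning each nucleus to 1000 UMIs, and 60.5%, 59.3%, 49.6% and 55.4% unthinned. In microglia, shown for comparison, the thinned shares were 6.57%, 5.21%, 39.2% and 18.1%, and the unthinned ones 4.62%, 6.49%, 27.0% and 15.6%. The part of neuronal RNA in the shares of either type was not tested. Thinning left out 134, 315, 1020 and 434 oligodendrocytes and 127, 267, 435 and 279 microglia. Median depths were 1402.5, 1308, 942 and 1223 UMIs in oligodendrocytes and 1055, 943.5, 787 and 933 UMIs in microglia. The oligodendrocyte shares exceeded those of microglia in all 4 libraries, and most in the fixed ones.

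Grik3, whose product GluK3 has a low affinity for glutamate, was highest in layer 6 nuclei and separated the MSN classes. Layer 6 nuclei had 584, 410.5, 786 and 589 CPM, against 16.5, 20.8, 32.3 and 35.5 CPM in upper-layer nuclei. The log2 difference was 4.05 to 5.14, higher in 4 of 4 libraries, and the layer 6 range did not overlap that of any other type. Layer 5 nuclei lay between them, at 178, 140.3, 214 and 161 CPM, several times the upper-layer level and near that of Drd2 MSNs. Drd2 MSNs had 198, 174, 301 and 238 CPM, against 10.1, 4.41, 18.8 and 11.1 CPM in Drd1 MSNs. That difference was 19.5-fold, 39.4-fold, 16.0-fold and 21.4-fold in the 4 libraries, 3.95 to 5.27 on the log2 scale. Grik1 ran the other way and was lower in Drd2 MSNs in 4 of 4 libraries, at log2 -1.16, -0.55, -2.16 and -2.11, from few UMIs. Grik4 stood at log2 -0.69 to -0.41 and Grik2 at -0.43 to -0.33, Gria3 at 0.14 to 0.22, and Gria1, Gria2, Gria4 and Grik5 between -0.27 and 0.13. After thinning to 1000 UMIs, 17.6%, 14.9%, 26.1% and 22.6% of Drd2 MSNs held a Grik3 UMI, against 0.737%, 0.134%, 1.80% and 0.664% of Drd1 MSNs. Unthinned, the shares were 71.2%, 65.7%, 65.7% and 66.7% in Drd2 MSNs and 5.90%, 3.07%, 6.59% and 2.88% in Drd1 MSNs, at median depths of 4020 to 7579 and 4339 to 8304 UMIs. Astrocytes, with thinned shares of 0.505%, 0.312%, 1.55% and 1.43%, stood near the Drd1 values. A share at that level is not read as expression. Thinning left out 1 Drd2 MSN and no Drd1 MSN. By median, Drd2 MSNs came after layer 6 nuclei and Sst interneurons in the order of Grik3 levels, and Sst interneurons had 292, 230.1, 324 and 236 CPM.

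Grik4, whose product GluK4 is a high-affinity partner subunit, was highest in OPCs and layer 6 nuclei. OPCs had 354, 262, 366 and 316 CPM, against 43.9, 47.6, 69.0 and 59.9 CPM in oligodendrocytes, a log2 difference of 2.40 to 3.01 in 4 of 4 libraries. Layer 6 nuclei had 295, 277, 406 and 330.4 CPM, a range that overlapped that of OPCs. Among interneurons, Vip nuclei were highest, at 224, 264, 269 and 201 CPM, and exceeded Pvalb nuclei by 1.74 to 2.02 on the log2 scale.

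Grik5, the other high-affinity partner, was highest by median in the MSN classes. MSNs had 129, 117, 246 and 235 CPM and layer 6 nuclei 123, 115, 195 and 189 CPM. Pvalb nuclei, at 82.3, 54.8, 99.6 and 80.1 CPM, lay below every MSN value, although all 15 neighbouring pairs in its order of 16 types overlapped. In MSNs and in layer 6 nuclei both fixed libraries were below both unfixed libraries, which the comparison of fixation takes up.

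The make-up of each family was then compared between types as a percent of the UMIs of that family. A share depends on gene length as well as on expression, so only the same gene is compared across types. Gria2 made up 58.2% to 74.5% of AMPA UMIs in astrocytes over the 4 libraries and averaged 65.8% there, against 30.7% in GABAergic nuclei. Gria4 averaged 32.9% in Pvalb interneurons and 4.4% in astrocytes. Gria3 averaged 27.0% in layer 5 nuclei and 5.8% in Vip interneurons. Newly formed oligodendrocytes had little Gria1, at 3.8% on average, where MSNs had 36.1%.

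Among kainate UMIs, Grik2 averaged 88.8% in Drd1 MSNs and 38.8% in layer 6 nuclei, where Grik3 held 32.8%. Grik3 averaged 9.7% in Drd2 MSNs and 0.4% in Drd1 MSNs. Grik1 averaged 31.5% in Sst interneurons and 0.2% in layer 5 nuclei. Grik4 was most prominent in layer 6 nuclei and OPCs, at 18.3% and 16.2%. Over all nuclei, by contrast, Grik3 averaged 7.6%, Grik1 10.8% and Grik4 6.6%.

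**Figure D2:**
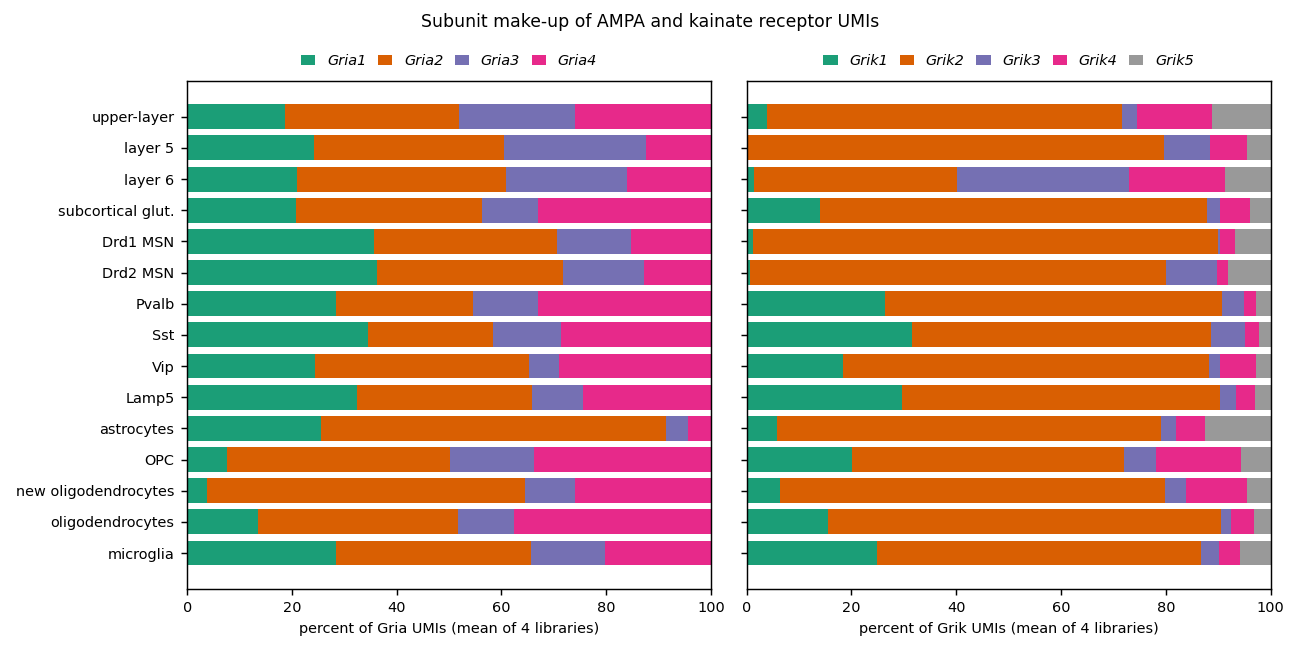
Mean share over the 4 libraries of each gene in all AMPA UMIs (left panel) and all kainate UMIs (right panel) of each gated type, in percent. Astrocytes stand out by Gria2 (65.8%) and layer 6 nuclei by Grik3 (32.8%), while Grik1 takes 31.5% in Sst interneurons and 0.2% in layer 5 nuclei.

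For fixation and harvest, a gene was called when its CPM was at least 2-fold higher, or at least 2-fold lower, in both pairs of libraries. The pairs of the 2 comparisons use the same 4 libraries, so the comparisons are not independent of each other. Log2 ratios are of CPM after adding 0.5 counts, fixed over unfixed and in vivo over post-mortem. In all nuclei, none of the 9 genes was called with fixation: of 9791 genes, 2.19% were called lower and 0.296% higher. None was called with harvest either, where 0.123% of genes were called lower and 0.337% higher. The medians over the 9 genes were 0.10 in the in vivo pair and 0.13 in the post-mortem pair for fixation, beside -0.02 and -0.03 over all genes. For harvest they were 0.20 and 0.12 in the fixed and unfixed pairs, beside -0.08 and -0.10 over all genes.

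Grik5 came closest to the 2-fold mark with fixation. Its CPM was 94.4 and 82.1 in the fixed libraries, against 165 and 152 in the unfixed ones, and the groups did not overlap. This was a 1.74-fold lower level in the in vivo pair, log2 -0.80 with an interval of -0.85 to -0.75. In the post-mortem pair it was 1.85-fold lower, log2 -0.88 with an interval of -0.93 to -0.83. Both fixed libraries were below both unfixed ones in 12 of the 13 types with at least 100 nuclei in every library. The exception was Pvalb interneurons, at 82.3 and 54.8 CPM in the fixed libraries against 99.6 and 80.1 CPM in the unfixed libraries. The 13 types are not separate observations, because subtypes lie inside the broader gates and all share the same 4 libraries. Fixed microglia, counted among the 12, held 2 and 4 Grik5 UMIs. In MSNs the log2 ratios were -0.94 and -1.01 and in cortical excitatory nuclei -0.83 and -0.74.

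Grik2, Gria2, Gria4 and Grik1 had log2 ratios above 0 in both pairs, with fixed libraries above unfixed ones. For Grik2 these were 0.35 and 0.34, from 1547 and 1549.9 CPM in the fixed libraries against 1214 and 1228 CPM in the unfixed libraries, and the same separation was seen in 8 of 13 types. For Gria2 they were 0.32 and 0.20, for Gria4 0.19 and 0.27, and for Grik1 0.10 and 0.27. Gria3 stood at 0.16 and 0.13, and its fixed and unfixed libraries overlapped. Gria1 stood at -0.38 in both pairs, with 1259 and 795 CPM in the fixed libraries against 1638 and 1035 CPM in the unfixed ones, and these groups overlapped, as the in vivo fixed library was above the post-mortem unfixed one. Grik3 was at -0.36 and -0.27 and Grik4 at -0.31 and -0.13. No gene of the 9 reached 2-fold in either pair. When the gated types were given equal weight, which removes differences in their shares between libraries, Grik5 stood at -0.90 and -0.93, Gria1 at -0.54 and -0.41 and Grik2 at 0.19 and 0.33. The direction of the small AMPA ratios did not hold with equal weights. Gria2 was then at 0.00 and -0.03, Gria3 at -0.28 and -0.04 and Gria4 at -0.04 and 0.16. The equal weights cover gated nuclei only and count astrocytes, oligodendrocytes and microglia as much as each neuron gate. Within single types, both fixed libraries were above both unfixed ones for Gria2 in 5 of 13 types and below in 3. For Gria4 these counts were 7 and 2, and for Gria3 3 and 3.

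**Figure D3:**
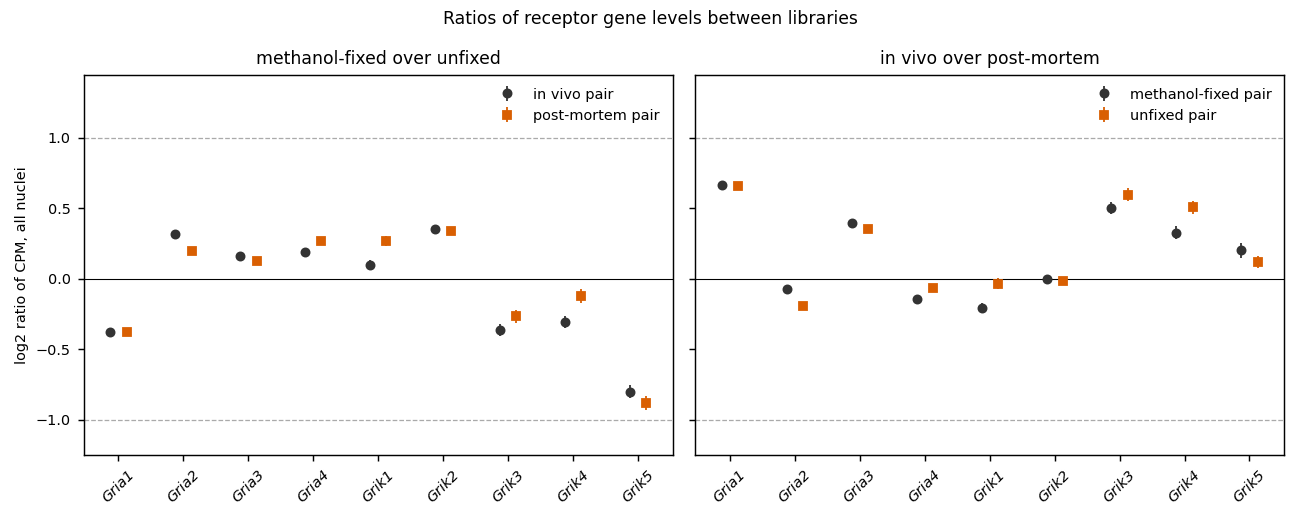
Log2 ratio of CPM in all nuclei for the 9 genes, with 1 point per pair of libraries and bars for the 95% counting interval. The left panel shows fixed over unfixed and the right panel in vivo over post-mortem. All points lie inside the dashed lines at 2-fold, with Grik5 lowest for fixation (-0.80 and -0.88) and Gria1 highest for harvest (0.66 in both pairs).

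With harvest, Gria1 differed most and by the same amount in both pairs. The in vivo libraries had 1259 (fixed) and 1638 CPM (unfixed), against 795 (fixed) and 1035 CPM (unfixed) in the post-mortem libraries. The ratio was 1.58-fold in each pair, log2 0.66 with an interval of 0.65 to 0.68 in both. In cortical excitatory nuclei the log2 ratios were 0.89 and 0.92, in GABAergic nuclei 0.82 and 0.96 and in Lamp5 interneurons 0.95 and 0.96. They were smaller in MSNs, at 0.44 and 0.34, and in subcortical glutamatergic nuclei, at 0.13 and 0.35, and in astrocytes they were -0.55 and -0.03. The differences between types were not tested.

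Grik3, Grik4 and Gria3 were above 0 in both harvest pairs without overlap of the groups in all nuclei. Grik3 was at 0.50 and 0.60, Grik4 at 0.33 and 0.51 and Gria3 at 0.39 and 0.36. Cortical excitatory nuclei made up 24.6% and 10.9% of the in vivo libraries (fixed, unfixed), against 14.9% and 9.25% of the post-mortem libraries. Gria3, which is high in those nuclei, had log2 ratios of 0.22 and 0.16 within cortical excitatory nuclei and of -0.02 and -0.14 within layer 6 nuclei. With equal weights of the gated types the harvest ratios were 0.50 and 0.63 for Gria1, 0.35 and 0.48 for Grik3, 0.08 and 0.48 for Grik4 and 0.15 and 0.39 for Gria3. Grik2 stood at 0.00 and -0.02, with intervals of -0.02 to 0.01 and of -0.03 to 0.00, and Gria2 at -0.07 and -0.19. Gria4, at -0.14 and -0.06, Grik1, at -0.21 and -0.03, and Grik5, at 0.20 and 0.12, also had overlapping groups. Grik1 changed sign with equal weights, to 0.28 and 0.14, and so did Grik2, to 0.10 and 0.24. The weighted Grik1 ratio of the fixed pair includes in vivo fixed microglia at 320 CPM, where 1 nucleus held 117 of 120 UMIs. Without that nucleus the microglial level was 8.41 CPM, and the weighted ratio was not recomputed. Median-of-ratios scaling put Grik2 at 0.06 and 0.05, and in the unfixed pair it turned Grik1 to 0.03 and Gria4 to 0.00.

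Within neurons few calls were made. In cortical excitatory nuclei none of the 9 genes was called with fixation, where 2.11% of genes were called lower and 0.942% higher. In MSNs none was called, where 2.6% were lower and 0.925% higher, and in GABAergic nuclei none, where 1.85% were lower and 0.394% higher. In upper-layer nuclei 1 of the 9 was called higher with harvest, against 1.76% of genes, and 1 was called lower, against 0.826%. The higher one was Gria1, with 971 and 1390.1 CPM in the in vivo libraries (fixed, unfixed) against 475 and 594 CPM in the post-mortem libraries, log2 1.03 and 1.23. With a stricter upper-layer gate the Gria1 call was lost, at 0.84 in the lower of the 2 pairs.

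The lower one was Grik1, with 8.57 and 9.94 CPM in the in vivo libraries against 56.5 and 57.5 CPM in the post-mortem libraries, log2 -2.71 (interval -3.18 to -2.29) and -2.50 (interval -3.28 to -1.86). Grik1 UMIs came from 38 of 405 in vivo fixed and 16 of 292 in vivo unfixed nuclei, against 97 of 469 post-mortem fixed and 68 of 368 post-mortem unfixed nuclei. Summed markers of other types were also lower in the in vivo libraries of this gate, by less than Grik1, and the GABAergic ones hardly so in the fixed pair. The layer 6 markers summed to 109 and 117 CPM in the in vivo libraries against 163 and 167 CPM in the post-mortem libraries. The subcortical glutamatergic markers summed to 91.4 and 85.0 CPM against 119 and 127 CPM, and the GABAergic markers to 12.1 and 13.9 CPM against 12.6 and 22.0 CPM. Their part in the Grik1 result was not tested.

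In Drd2 MSNs, 1 of the 9 genes, Grik1, was called higher with fixation, against 0.955% of genes. Its levels were 25.2 and 16.1 CPM in the fixed libraries against 7.72 and 6.11 CPM in the unfixed libraries, log2 1.66 and 1.38. In each fixed library 1 nucleus carried much of the count, 39 of 81 UMIs in the in vivo library and 33 of 76 in the post-mortem one. Without the nucleus with the most UMIs in each library the ratios were 0.84 and 0.83, and the call was lost; with doublets kept they were 0.11 and 0.55.

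**Figure D4:**
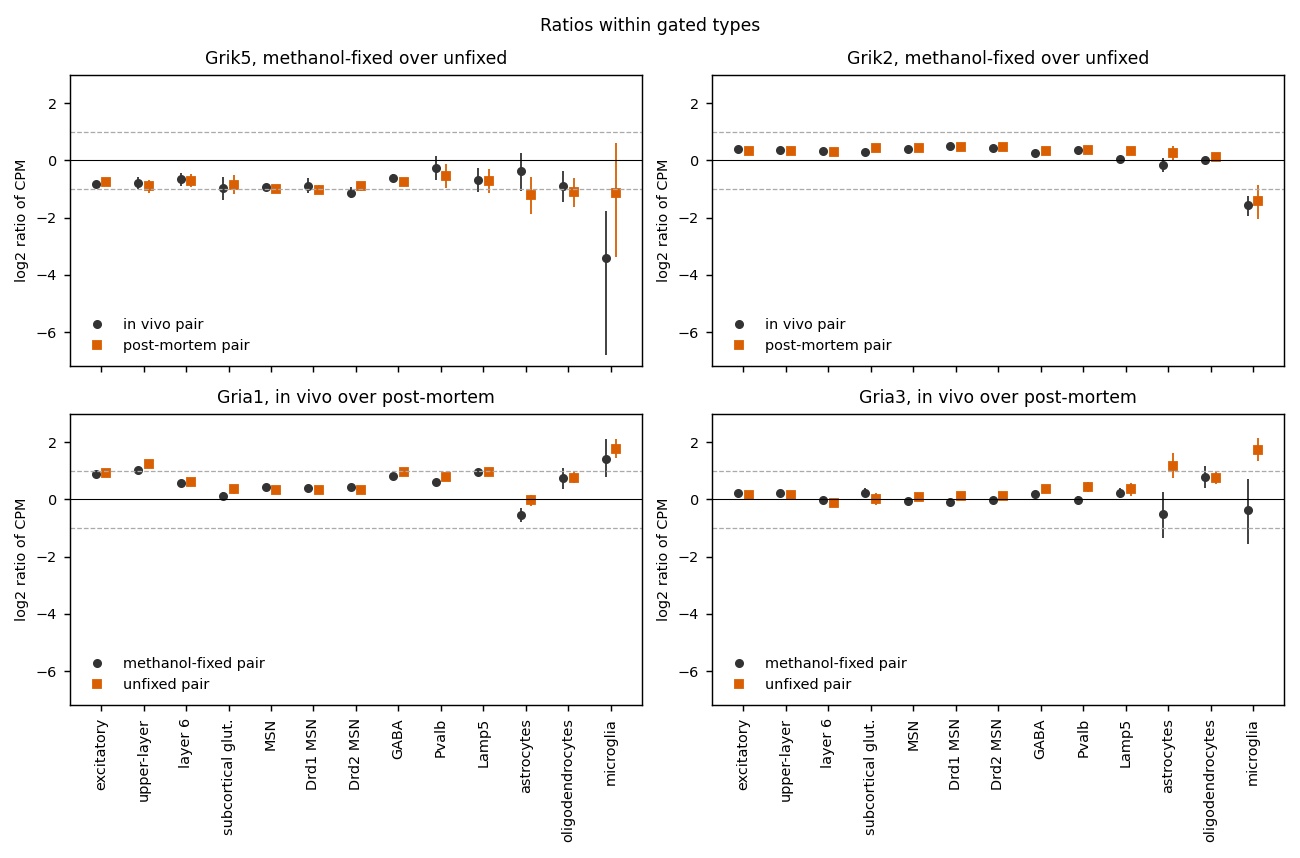
Log2 ratio of CPM by gated type (13 types), with 1 point per pair of libraries and 95% counting intervals: Grik5 and Grik2 for fixed over unfixed, Gria1 and Gria3 for in vivo over post-mortem. Grik5 is below 0 in every type, and Gria1 is above 0 in both pairs in every type shown except astrocytes (-0.55 and -0.03).

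Glial nuclei showed the most calls with fixation. In oligodendrocytes 4 of 9 genes were at least 2-fold lower in both pairs, beside 8.81% of all genes. Gria1 had 85.2 and 51.4 CPM in the fixed libraries against 313 and 184 CPM in the unfixed libraries, log2 -1.87 and -1.84. Gria2 was at -1.27 and -1.18, Gria3 at -1.52 and -1.56 and Grik3 at -2.46 and -2.28. Grik3 rested on 10 and 18 UMIs in the fixed libraries, and 1 nucleus held 6 of the 10 in vivo ones. Its fixed levels, 6.76 and 7.52 CPM, were below 10 CPM, against 38.9 and 37.2 CPM unfixed. Grik3 thus passed the minimum mean level through the unfixed libraries. The others were not called: Grik2, with 935 and 921 CPM in the fixed libraries against 925 and 844 CPM in the unfixed libraries, had log2 ratios of 0.02 and 0.13, Gria4 of -0.33 and -0.12 and Grik1 of -0.35 and -0.10. Grik5 stood at -0.88 and -1.10, short of 2-fold in the first pair. With doublets kept the Gria2 call was lost, at -0.82 in the post-mortem pair, and Grik5 was called. Oligodendrocytes thus had receptor genes with ratios near 0 and others with ratios beyond 2-fold in the same nuclei.

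Neuronal transcripts moved with those calls. The summed level of 10 neuronal genes (Syt1, Snap25, Snhg11, Rbfox3, Nrgn, Slc17a7, Penk, Ppp1r1b, Gad1 and Gad2) in oligodendrocytes was 536 and 772 CPM in the fixed libraries, against 3495 and 3191 CPM in the unfixed libraries. None of the 10 was at 0 in any library. In the neuron gates the same sum was 10158 and 11195 CPM in the fixed libraries against 9141 and 10097 CPM in the unfixed libraries. As a percent of neurons, single genes of the list varied widely in unfixed oligodendrocytes. Penk stood at 132% and 119% and Slc17a7 at 55.9% and 37.0%, while Rbfox3 stood at 12.6% and 10.7%. Grik2 stood at 67.9% and 60.4% in the same nuclei. Oligodendrocytes with UMIs of at least 3 of the 10 genes made up 0.759% and 2.01% of the gate in the fixed libraries against 23.6% and 26.1% in the unfixed libraries. Without them Grik2 stood at 903 and 896 CPM in the fixed libraries against 923 and 851 CPM in the unfixed libraries, and Gria2 at 187 and 205 CPM against 537 and 467 CPM. The Grik3 call was lost without them, at -0.99 in the post-mortem pair. The neuronal sum then remained at 320 and 523 CPM in the fixed libraries against 2613 and 2146 CPM in the unfixed libraries. Its part in the receptor ratios was not tested.

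In microglia 5 of the 7 genes that could be compared were called lower with fixation, beside 9.32% of genes. Gria2 had 93.3 and 123 CPM in the fixed libraries against 769 and 608 CPM in the unfixed libraries, log2 -3.02 and -2.29. Gria1 was at -2.07 and -1.73, Gria3 at -3.90 and -1.81 and Grik2 at -1.57 and -1.43. Grik5 was at -3.42 and -1.15, and the second interval, -3.39 to 0.60, includes 0. It had 2 and 4 UMIs in the fixed libraries against 39 and 9 in the unfixed ones. Its fixed levels, 5.33 and 8.35 CPM, were below 10 CPM, so it passed the minimum mean level through the unfixed libraries. Grik3 and Grik4 were below the minimum of 50 UMIs, and Gria4 and Grik1 were not called. With a stricter gate the calls of Gria1, Gria2, Gria3 and Grik2 were lost and those of Grik3 and Grik4 were gained. With doublets kept only Gria3 of the 5 was still called. The 10 neuronal genes summed to 975 and 935 CPM in fixed microglia against 5319 and 4194 CPM in unfixed microglia, or 9.602% and 8.36% against 58.2% and 41.5% of their level in neurons. Single genes of that list varied widely in unfixed microglia. Penk stood at 134% and 137% and Nrgn at 106% and 66.8%, while Gad1 stood at 17.2% and 26.0%. The part of neuronal RNA in these values was not tested.

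Harvest also gave 2 calls of the 7 in microglia, Gria1 and Grik2 higher in vivo, beside 1.41% of genes. Gria1 had 168 and 712 CPM in the in vivo libraries (fixed, unfixed) against 62.6 and 210.0 CPM in the post-mortem libraries, and Grik2 224 and 668 CPM against 73.1 and 199 CPM. A single nucleus of the in vivo fixed library held 117 of its 120 Grik1 UMIs in this gate, 67 of 84 Grik2 UMIs, 41 of 63 Gria1 UMIs or 18 of 30 Gria4 UMIs, counted gene by gene. Without the top nucleus Grik2 was at 47.6 CPM there, and neither gene was called. Such concentration was rare: of 635 levels with at least 20 UMIs, 9 had at least 50% of them in 1 nucleus, and the median share of the top nucleus was 3.59%.

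Astrocytes gave 1 call with fixation among 8 genes compared, beside 2.54% of genes called lower. Grik1 was at 6.43 and 16.5 CPM in the fixed libraries against 58.3 and 63.6 CPM in the unfixed libraries, log2 -2.98 and -1.91, and 20 of its 40 UMIs in the post-mortem unfixed library came from 1 nucleus. Neuronal genes summed to 619 and 1080 CPM in fixed astrocytes against 2827 and 2196 CPM in unfixed ones. Without astrocytes that held at least 3 neuronal genes, the second ratio was -0.43 and the call was lost, as it was with doublets kept, at -0.66. Gria2, the AMPA gene that prevails in astrocytes, had 1461 and 1517 CPM in fixed against 1609.9 and 1824 CPM in unfixed libraries and was not called.

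OPCs, which receive glutamatergic synapses from neurons, had receptor levels at or above those of all gated neurons pooled for several genes. Single neuron types were higher for some of them. Grik1 was at 379 to 420 CPM in OPCs, against 641 to 830 CPM in GABAergic and 1147 to 1586 CPM in Sst nuclei. Gria4 was at 882 to 1267 CPM in OPCs against 1489 to 1804 CPM in Pvalb nuclei. For Grik4 the OPC range overlapped that of layer 6 nuclei. As a percent of the CPM in all gated neurons of the same library, Grik4 stood at 214% to 281%, Grik1 at 168% to 226% and Gria4 at 93.5% to 111%. The neuronal genes stood at 8.71% to 30.7% of their neuronal level in the same OPC gate when summed. Single genes of that list were higher, with Gad1 at 102% and 106% in the fixed libraries and Penk at 105% and 102% in the unfixed ones. The part of neuronal RNA in the OPC values was not tested. OPC nuclei with at least 3 neuronal genes were 27.3% and 22.9% of the gate in the fixed libraries against 40.0% and 45.4% in the unfixed libraries. Without them Grik4 stood at 390, 259, 371 and 326 CPM in the 4 libraries and Grik1 at 395, 400, 499 and 342 CPM. Gria4 stood at 1097, 1232, 810 and 1010 CPM, and Gria1 at 89.0, 68.4, 222 and 121 CPM.

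**Figure D5:**
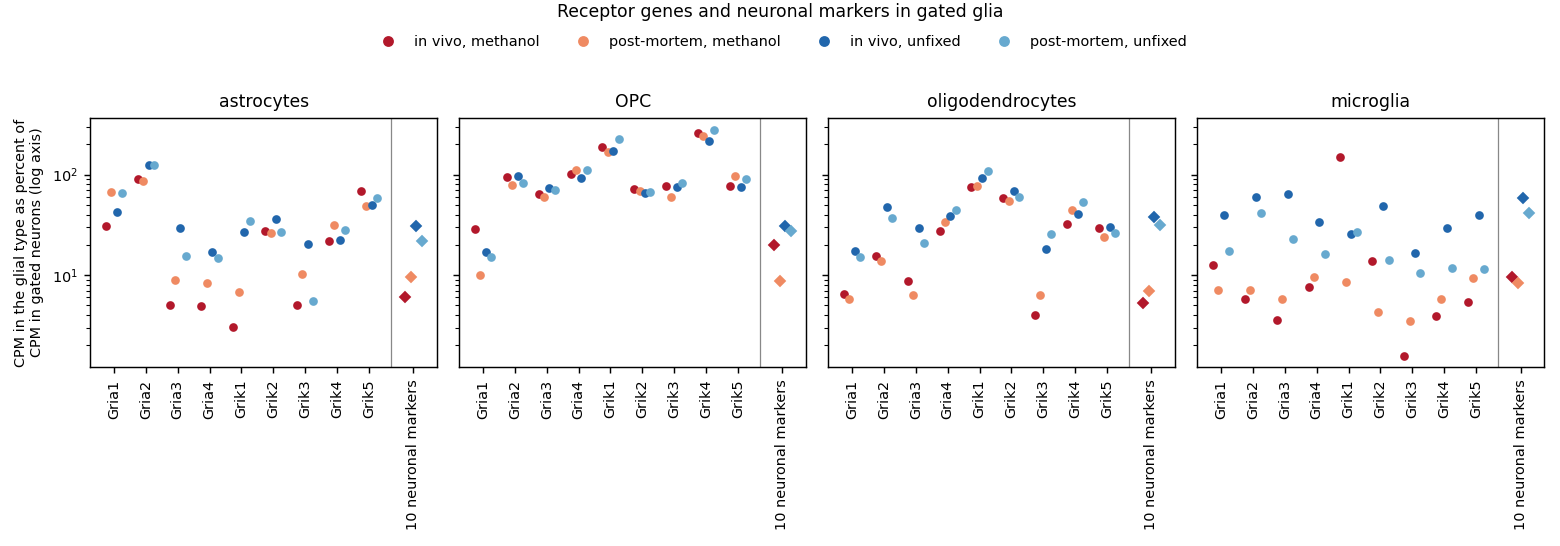
Level of the 9 receptor genes and of the summed 10 neuronal genes in 4 glial types, as a percent of the level in gated neurons of the same library (log axis), with 1 point per library. Grik4 and Grik1 in OPCs lie above 100%. In oligodendrocytes Grik2 lies at 54.1% to 67.9% in all 4 libraries. The summed neuronal genes there lie at 5.28% and 6.90% in the fixed libraries against 38.2% and 31.6% in the unfixed libraries. The sum covers a wide range of single genes in unfixed oligodendrocytes, from Rbfox3 at 12.6% and 10.7% to Penk at 132% and 119%.

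Partner genes of the receptors were compared in all nuclei by the same rule. Beside the counts below, 0.296% of all genes were called higher and 2.19% lower with fixation. With harvest 0.337% were called higher and 0.123% lower. At such shares, lists of this length would mostly hold few or no calls. Of 25 genes for AMPA receptor auxiliary proteins, 20 were measured. Called higher with fixation was 1 gene, Nptx1, which encodes a secreted pentraxin that binds AMPA receptors. It had 22.9 and 20.1 CPM in the fixed libraries against 10.3 and 9.20 CPM in the unfixed libraries, log2 1.16 and 1.13. None was called lower with fixation and none was called with harvest. The list medians for fixation were -0.01 and -0.02, near those of all genes. The 3 with the highest mean level were Shisa9, Olfm3 and Cacng3. Shisa9, whose product changes AMPA receptor desensitization, had 385, 278, 377 and 249.6 CPM, Olfm3, a secreted olfactomedin, 179.9, 259, 168 and 205 CPM, and Cacng3, a transmembrane AMPA receptor regulatory protein, 181, 144, 198 and 164 CPM.

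Of 4 genes for kainate receptor auxiliary proteins, 3 were measured. C1ql3, a secreted C1q-family synapse organizer, was higher with harvest, at 61.6 and 49.9 CPM in the in vivo libraries (fixed, unfixed) against 23.3 and 15.5 CPM in the post-mortem libraries, log2 1.40 and 1.69. Neto1 and Neto2, the transmembrane partners that slow kainate receptor gating, were not called. Neto1 had 331, 334, 299 and 308 CPM and Neto2 103, 119.6, 88.3 and 103 CPM.

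None of the 17 scaffold and trafficking genes was called in either comparison, and their fixation medians were -0.18 and -0.22, with 12 of 17 below 0 in both pairs. Dlg2, a scaffold of the postsynaptic density, was the most abundant, at 6407, 5676, 6133 and 5533 CPM. Grip1, which binds the AMPA subunit GluA2, had 763, 607, 718 and 545 CPM, and Dlg1, a scaffold that binds GluA1, 384, 364, 349 and 325 CPM. None of the 3 RNA editing genes was called. Adarb1, which encodes the enzyme that edits the glutamine/arginine site, had 115, 109, 125 and 111 CPM, Adar 94.2, 89.2, 116 and 101 CPM, and Adarb2, which encodes a related protein without known activity, 567, 547, 667 and 547 CPM. Of 9 NMDA and delta receptor genes 7 were measured and none was called. Grin2b had 1586, 1317, 1656 and 1279 CPM, and Grin2a 990.0, 787, 1119 and 927 CPM.

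Genes with the most similar pattern over types were sought among 12129 genes, by Pearson r of log2(CPM + 1) averaged over libraries. The 15 types share libraries and depth, and r is a description. The closest genes were Gpi1 (r = 0.957) and Robo2 (0.954) for Gria1, Map2 (0.940) and Tnik (0.929) for Gria2, Sgcz (0.927) and Syt16 (0.920) for Gria3, and Kcnq1 (0.970) and Snap91 (0.949) for Gria4. For the kainate genes they were Chd6 (0.913) for Grik1, Snrpn (0.922) and Robo1 (0.913) for Grik2, Fam155a (0.782) and Flna (0.746) for Grik3, Tmem196 (0.933) and Csmd2 (0.890) for Grik4, and Dpf1 (0.946) for Grik5. Grik3 had the lowest best match of the 9. Among the receptor genes themselves, Gria2 and Grik5 were most alike, at r = 0.880, and Gria3 and Grik1 least, at -0.24.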

How the data were processed

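The deposited counts are whole-number UMIs per gene and nucleus barcode, with mm10 named as genome build in the submitters' processing notes. The aligner, cell caller, annotation and strand setting are not given in the sources used here. Nuclei with at least 500 UMIs, 300 genes and at most 5% mitochondrial UMIs were kept, and Scrublet doublets (scanpy 1.11.5, expected rate 6%) were removed, 9.19% to 15.3% of a library. Types were gated by marker counts. UMIs were summed per type and library and scaled to CPM with Python 3.11.15, NumPy 2.4.6 and pandas 2.3.3; intervals used SciPy 1.17.1. Genes were compared at a mean of at least 10 CPM and, within types, at least 50 UMIs, in types with at least 100 nuclei in every library; levels are given for libraries with at least 20 nuclei. With 1 library per group, no test was made. Named were all 9 receptor genes, from each partner list those called in all nuclei and the 3 highest in mean CPM, and per receptor gene the 2 closest in pattern, leaving out predicted genes, gate and check markers; neuronal genes are named beside glial values. The genes and lists were chosen with earlier results of these data known. The call rule and intervals were tested on simulated data. Alternatives were doublets kept, other gates, scalings, minimum levels and added counts. Gene positions and pore-loop bases come from GENCODE M21. A few genes that these rules name are not reported here.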

Additional observations from a re-analysis of the deposited data

Results flagged for a closer look

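Grik1 had log2 ratios of opposite sign with fixation in 2 types. In astrocytes the log2 ratio of fixed over unfixed was -2.98 in the in vivo pair and -1.91 in the post-mortem pair, while in Drd2 MSNs it was 1.66 and 1.38. The difference between the types was not tested. Both rest on few UMIs, at 6.43 to 63.6 CPM in astrocytes and 6.11 to 25.2 CPM in Drd2 MSNs, and 1 nucleus held 39 of the 81 UMIs in in vivo fixed Drd2 MSNs. Both calls were lost under alternatives: in Drd2 MSNs the ratios were 0.84 and 0.83 without the nucleus with the most UMIs and 0.11 and 0.55 with doublets kept, and in astrocytes the second ratio was -0.43 without nuclei holding neuronal genes and -0.66 with doublets kept.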

How the results depend on the processing

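No paired analysis was possible because the labels give no replicate numbers to serve as a block and each group held 1 library, so no library was left out either. A model with harvest and fixation as additive terms over the 4 libraries was not run. Leaving out the nucleus with the most UMIs, or glial nuclei with at least 3 neuronal genes, was chosen after seeing the data. Over all nuclei, no receptor gene was called under any alternative run. Without a minimum level, 1822 genes were called lower and 399 higher with fixation, and 685 lower and 361 higher with harvest. With gated types weighted equally, 49 were higher with fixation, and 2 lower and 13 higher with harvest. Of receptor genes, upper-layer calls higher with harvest were 0 with a stricter gate. MSN calls lower with fixation were 1 with a stricter gate (Grik5) and 1 when nuclei were thinned to 1000 UMIs before gating (Grik1). Lamp5 nuclei gained Gria1, higher with harvest, with a stricter gate and with median-of-ratios scaling. Drd1 MSNs gained Grik5, lower with fixation, and Grik3, higher with harvest, with a stricter gate, and Grik3, lower with fixation, with doublets kept. Grik1, higher with harvest, was gained in Drd2 MSNs with a stricter gate and in layer 6 nuclei with doublets kept. The Drd2 MSN calls higher with fixation were 0 with doublets kept and 0 without the top nucleus. The astrocyte calls lower with fixation were 0 with doublets kept and 0 without nuclei holding neuronal genes. Microglia calls lower with fixation were 3 with a stricter gate, of which only Grik5 was among the 5 reported, and 1 with doublets kept (Gria3). Microglia calls higher with harvest were 6 with a stricter gate, 1 with the thinned gate, 4 with doublets kept, 0 without the top nucleus and 0 without nuclei holding neuronal genes. The microglial Grik2 harvest ratio in the fixed pair reversed to -0.063 with the thinned gate, -0.52 without the top nucleus and -0.50 without nuclei holding neuronal genes. The causes were not tested. Of the log2 ratios of receptor genes, 443 of 492 kept their call, or for those not called stayed within the counting interval, with doublets kept, 323 of 456 with a stricter gate and 435 of 492 with median-of-ratios scaling, but 142 of 276 with the thinned gate and 5 of 36 with types weighted equally. The thinned gate could not be computed for upper-layer, layer 6, Drd1 MSN, Drd2 MSN and Pvalb nuclei, where a library held 0 to 11 nuclei. Scaling by median of ratios shifted oligodendrocyte fixation ratios by 0.12 and 0.14 on the log2 scale. Of the closest-pattern genes, 17 of 18 remained with 10 added to CPM. Low UMI counts limit several glial ratios, such as that of Grik5 in fixed microglia.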
